A study of Saccharomyces cerevisiae with 13 samples.

Results

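Budding yeast can enter S phase from a pheromone arrest or from a preceding mitosis, and the time course analysed here holds 1 passage of each kind. The second passage from G1 into S is covered by the arrays at 70, 80 and 90 min after release, when the cells had come out of a mitosis. The first passage is covered by the arrays at 10, 20 and 30 min, when the cells had just come out of arrest with alpha factor, the mating pheromone that stops MATa cells before S phase. The 6 arrays were chosen by their time labels, out of 13 arrays taken at 0 to 120 min in steps of 10 min, and paired 60 min apart (70 with 10, 80 with 20 and 90 with 30 min). Both passages share the strain W303 with the SSD1-V background, growth in the rich medium YEPD, the earlier arrest and the release. Each array set the cDNA of 1 time point, labelled with Cy5, against that of an untreated asynchronous W303a culture in Cy3.

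The values are log ratios per gene of the timed sample to that culture, taken as log2, and a difference of log ratios compares the second with the first passage. Neither the base of the logarithm nor which dye is the numerator is stated in the labels. The direction is likely that of Cy5 over Cy3, since FIG1, a gene induced by pheromone, stood at 4.53 at 0 min. The opposite direction would turn every sign below, and another log base would change every size. Each time point has 1 array and no dye swap, and nothing in the labels tells separate cultures apart, so the 3 pairs are positions in a course and not replicates. The errors below are standard errors (SE) over the 3 pair differences in limma's fit, and the p-values measure how far those differences disagree within this course, not the variation between cultures. Because the RNA came from whole cultures, fewer cells in a state and less RNA per cell cannot be told apart.

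In the cycle of this yeast, the factor Swi5 enters the nucleus as cells leave mitosis and switches on early G1 genes, among them that of the kinase inhibitor Sic1. Enzymes that digest the septum then part daughter from mother. SBF and MBF then switch on the late G1 genes for cyclins, budding, cell wall and DNA replication, and histone genes follow in S phase. Pheromone acts through the kinase Fus3 and the factor Ste12, and the inhibitor Far1 stops the G1 cyclin kinase.

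Between 6178 and 6186 rows of the table were measured on each array. The spread of log ratios over rows (SD) was 0.280, 0.247 and 0.253 at 70, 80 and 90 min, against 0.365, 0.335 and 0.342 at 10, 20 and 30 min. The mean log ratio of the second passage was closer to 0 than that of the first for 3610 of 6137 genes, or 58.8%. This narrower spread applies to every difference below, and its part in them was not tested. The median difference over all genes was -0.003, with quartiles of -0.093 and 0.083.

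The second passage differed from the first mainly in a small set of genes that were higher, led by genes of cell separation. Of 6137 genes tested, 66 (1.08%) were higher and 33 (0.538%) were lower in the second passage at a limma adjusted p under 0.05, together 99 genes or 1.61%. At an unadjusted p under 0.05 there were 853 genes, or 13.9%, the share to read beside the unadjusted counts of the lists below. The 66 had a median difference of 0.86, or 1.82-fold, and a range of 0.43 to 2.82, and the 33 lower genes had a median size of 0.567, or 1.48-fold, up to 1.34. Of the 30 genes that differed by at least 1 in either direction, called or not, 25 were higher and 5 lower. All 3 arrays of the second passage lay above all 3 of the first for 56 of the 66, and below them for 29 of the 33. Over all 6134 genes measured on the 6 arrays, 518 (8.44%) lay wholly above and 430 (7.01%) wholly below. The 66 and the 33 were called from these same arrays, so their larger share is partly built in and is not independent evidence.

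These counts rest on few positions. They fell to 20 genes, 18 higher and 2 lower, when neighbouring pairs were taken as correlated at 0.5, a setting chosen after the pairs were seen to correlate across genes (Pearson r = 0.57 for the 70 and 80 min pairs, 0.47 for the 80 and 90 min pairs), and to 0 in limma without the 80 and 20 min pair or without the 90 and 30 min pair (304 and 809 at an unadjusted p under 0.05).

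The median log ratio of the 66 higher genes was 0.10 in the second passage and -0.87 in the first. In the first passage, 59 of them were below the asynchronous culture at each of 10, 20 and 30 min. At 70 min, 56 of them had their highest value of the second passage. Their level before each passage was not the same: the median was 0.28 at 60 min and -0.39 at 0 min, in the arrest. The 33 lower genes showed the reverse arrangement, with median levels of -0.01 in the second passage and 0.58 in the first, and 27 of them were above 0 at 10, 20 and 30 min.

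**Figure D1:**
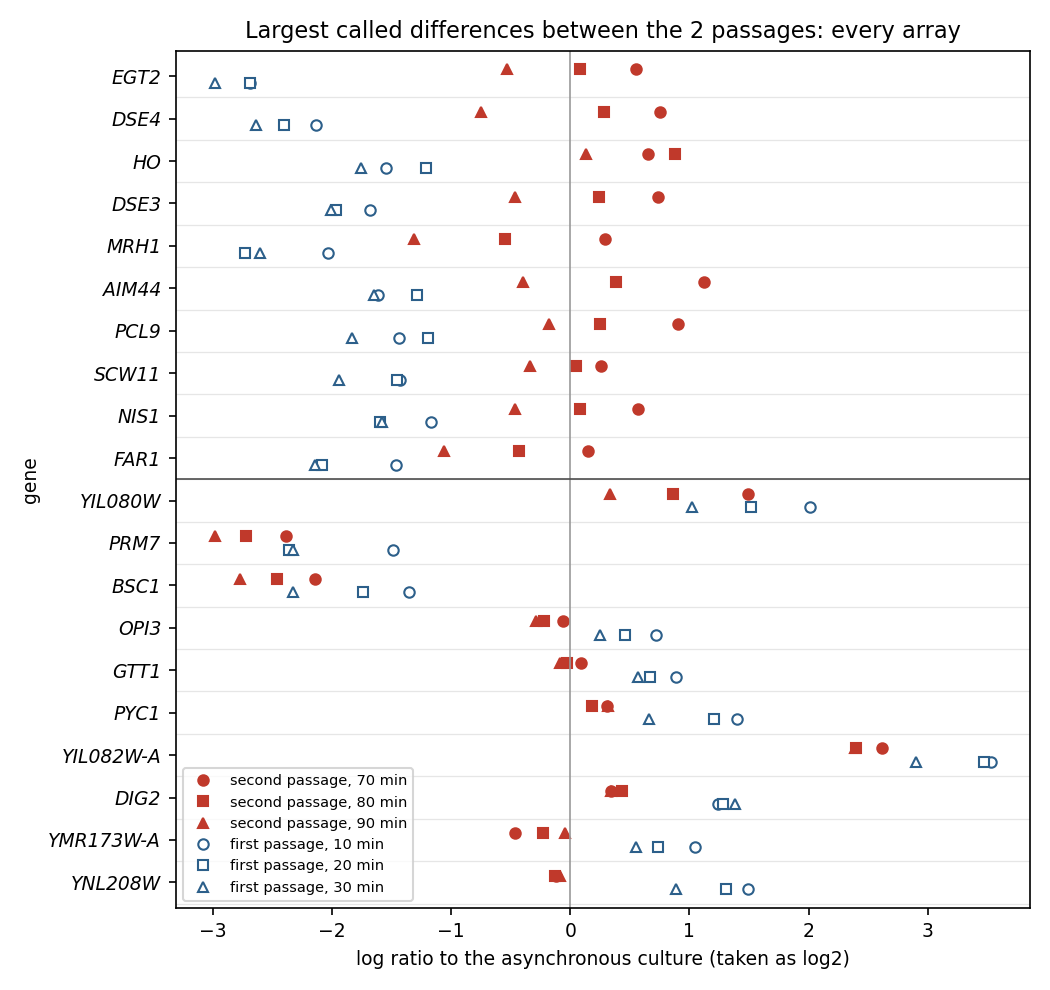
Log ratios to the asynchronous culture (horizontal axis, taken as log2) of the 10 genes called highest and the 10 called lowest in the second passage, 1 point per array. Filled red symbols are 70, 80 and 90 min and open blue symbols 10, 20 and 30 min, and the 2 sets do not overlap for any of the 10 highest genes, from EGT2 with a difference of 2.82 to FAR1 with 1.45.

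Genes that separate daughter from mother had the highest median difference of the 27 lists examined. In the list of cell separation genes, 10 of 12 were higher, 0 were lower, and the median difference was 1.15 (median level 0.03 in the second passage and -1.15 in the first), beside -0.003 over all genes. With neighbouring pairs correlated, 5 of the 12 were called. EGT2 (YNL327W), needed for timely cell separation, stood at 0.55, 0.08 and -0.53 at 70, 80 and 90 min, against -2.69, -2.69 and -2.98 at 10, 20 and 30 min. Its arrays did not overlap, and it had the largest difference of all called genes, 2.82 ± 0.14 or 7.06-fold (limma adjusted p = 3.2e-05). DSE4 (YNR067C), the glucanase that digests the septum from the daughter side, was at 0.75, 0.28 and -0.75 in the second passage and -2.13, -2.40 and -2.64 in the first. DSE3 (YOR264W), a daughter-specific protein, was at 0.74, 0.24 and -0.46 in the second passage and -1.68, -1.97 and -2.01 in the first. Neither gene's arrays overlapped, and the differences were 2.48 ± 0.17 (limma adjusted p = 2.5e-04) and 2.06 ± 0.15 (limma adjusted p = 2.9e-04). All 3 genes were highest at 70 min and declined over the second passage, while in the first they were low throughout.

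SCW11 (YGL028C), a cell wall glucanase of the same group, took another course. It stood at 0.26, 0.05 and -0.34 in the second passage and at -1.43, -1.45 and -1.94 in the first, a difference of 1.60 ± 0.08 (limma adjusted p = 4.8e-05). In the arrest, at 0 min, it had been at 0.88, above every array of either passage. AMN1 (YBR158W), which blocks the mitotic exit network in daughters, also dropped after the arrest: it was at 0.55, 0.16 and -0.37 in the second passage and -1.34, -1.31 and -1.26 in the first, with 0.78 at 0 min (difference 1.42 ± 0.16, limma adjusted p = 0.0034). By contrast EGT2, DSE4 and DSE3 were already low in the arrest, at -1.85, -0.85 and -0.96. Among the 66 higher genes, 40 were higher at 0 min than on every first-passage array, and 12 were then at or above their highest second-passage array.

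The other called members of the list were ASH1, DSE1, PRY3, SUN4 and BUD9. ASH1 (YKL185W), the repressor of HO in daughters, differed by 1.20 ± 0.14 (limma adjusted p = 0.0034), although its arrays overlapped: 0.68, 0.04 and -0.65 in the second passage, -0.61, -1.50 and -1.41 in the first. DSE1, a daughter-specific protein, differed by 1.10 ± 0.13, PRY3, a cell wall protein, by 1.00 ± 0.12, the glucanase-like SUN4 by 0.90 ± 0.09 and the bud site marker BUD9 by 0.84 ± 0.10. The 2 members that missed the threshold had first-passage values spread over a wide range. DSE2, a secreted daughter protein, was at -0.25, 0.21 and -0.05 in the second passage and 0.18, -1.35 and -2.07 in the first (difference 1.05 ± 0.37, limma adjusted p = 0.25). CTS1, the chitinase that opens the septum, was at -0.34, -0.16 and -0.22 in the second passage and 0.19, -0.85 and -2.10 in the first (difference 0.68 ± 0.34, limma adjusted p = 0.43). At 10 min both were still above the asynchronous culture, and by 30 min both had values about as low as those of DSE3.

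The genes also differed in when they came up before the second passage. At 60 min ASH1 was at 0.98, PCL9 at 0.84, DSE3 at 0.28 and DSE4 at 0.15. At the same time DSE2 was at -2.35, CTS1 at -2.09, DSE1 at -1.65, HO at -1.33 and SCW11 at -1.22, and on the 70 min array these 5 were between -0.34 and 0.65. Of the 66 higher genes, 51 had reached their lowest second-passage level or more by 60 min and 15 had not.

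**Figure D2:**
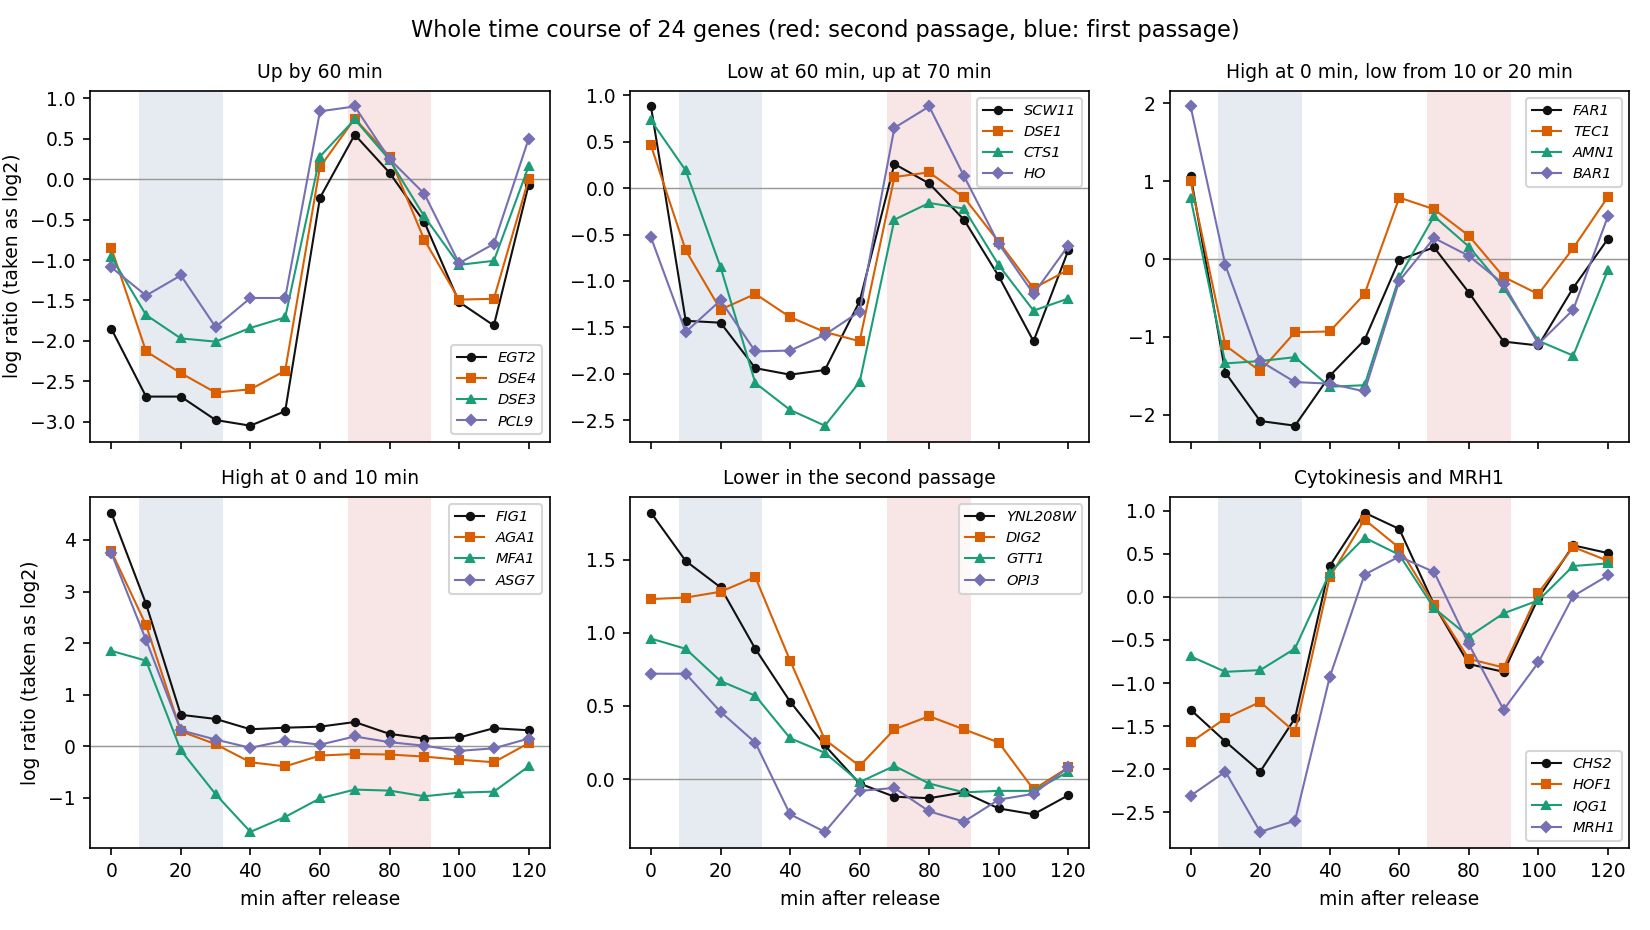
Log ratio (vertical axis, taken as log2) against min after release for 24 genes in 6 panels, with the second passage shaded red and the first shaded blue. EGT2 and DSE4 stay low until 50 min and come up at 60 and 70 min, SCW11 falls between 0 and 10 min, FIG1 and AGA1 are high at 0 and 10 min only, and YNL208W declines through the first 60 min.

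The Swi5 targets gave a similar picture. In the list of Swi5 targets with SIC1 and the PIR cell wall genes, 6 of 11 were higher and 0 lower, with a median difference of 0.86, and 3 were called with neighbouring pairs correlated. PCL9 (YDL179W), a cyclin of the kinase Pho85, was at 0.90, 0.25 and -0.18 in the second passage and -1.44, -1.19 and -1.83 in the first (difference 1.81 ± 0.15, limma adjusted p = 6.1e-04). NIS1 (YNL078W), a bud neck protein, was at 0.57, 0.08 and -0.46 in the second passage and -1.17, -1.60 and -1.58 in the first (difference 1.51 ± 0.12, limma adjusted p = 5.9e-04). RME1 (YGR044C), a repressor of meiosis, was at 0.45, 0.26 and -0.16 in the second passage and -0.78, -1.28 and -1.36 in the first (difference 1.32 ± 0.10, limma adjusted p = 2.9e-04). None of these 3 genes had overlapping arrays.

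TEC1, the factor of filamentous growth, was higher by 1.40 ± 0.18 (limma adjusted p = 0.0070), and like SCW11 it had been above 0 in the arrest, at 1.00. SIC1 (YLR079W), which holds back the S phase cyclin kinase, was at 0.69, 0.18 and -0.32 in the second passage and -0.64, -0.56 and -0.84 in the first. Its difference was 0.86 ± 0.14 (limma adjusted p = 0.022), and adjusted p = 0.31 with neighbouring pairs correlated. HSP150, a PIR protein, had overlapping arrays, 0.70, 0.09 and -0.45 in the second passage and 0.22, -1.40 and -1.88 in the first (difference 1.13 ± 0.18, limma adjusted p = 0.017). The remaining PIR genes did not pass: PIR1 differed by 0.42 ± 0.21, CIS3 by 0.13 ± 0.12 and PIR3 by 0.04 ± 0.09. PCL2 (0.33 ± 0.11) and CDC6 (0.07 ± 0.11) did not pass either. The 2 lists share no gene, and 16 of their 23 tested members were called higher. They were written with earlier results of these data known, so the counts describe these genes and are not independent evidence.

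HO (YDL227C), whose endonuclease starts mating type switching, stood apart among the late G1 genes of SBF. It was at 0.65, 0.88 and 0.13 in the second passage and -1.55, -1.21 and -1.76 in the first, so that no array overlapped, and the difference was 2.06 ± 0.09 or 4.17-fold (limma adjusted p = 3.2e-05). Swi5 is needed for HO beside SBF, and HO is known to be transcribed in mother cells. Of the 18 SBF genes, 1 other was called, GIC2, an effector of Cdc42 in budding, by 0.53 ± 0.09 (limma adjusted p = 0.021). Its call was lost with neighbouring pairs correlated (adjusted p = 0.68). The median of the list was 0.01, and 0.17 after quantile normalization of the arrays. An unadjusted limma p under 0.05 was reached by 3 of the 18, against 13.9% of all genes.

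The G1 cyclins are the SBF targets that drive the passage itself. CLN1 stood at 0.65, 0.66 and 0.33 in the second passage and at 0.66, 0.52 and 0.37 in the first, a difference of 0.03 ± 0.08. CLN2 was at 0.40, 0.68 and 0.35 in the second passage and 0.65, 0.81 and -0.27 in the first, a difference of 0.08 ± 0.15. Neither passed, and position by position CLN1 differed by no more than 0.14. HCM1, the factor that acts after SBF, differed by 0.06 ± 0.08. CSI2, linked to chitin synthesis, was the SBF member with the lowest difference, -0.38 ± 0.11 (limma adjusted p = 0.17).

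The DNA replication genes all had values below 0 for the difference, but none passed. In the MBF and replication list, 0 of 29 were higher and 0 lower by the limma fit (12 at an unadjusted p under 0.05, against 13.9% of all genes), the median was -0.23, and every member lay between -0.43 and -0.10, with a median level of 0.43 in the second passage and 0.69 in the first. The arrays of the passages overlapped for 28 of the 29. RNR1, the large subunit of ribonucleotide reductase, was at 0.75, 0.83 and 0.34 in the second passage and 1.34, 1.64 and 0.24 in the first (difference -0.43 ± 0.15, limma adjusted p = 0.26). DUN1, a checkpoint kinase, was at 0.31, 0.54 and 0.35 in the second passage and 0.85, 0.92 and 0.66 in the first (difference -0.41 ± 0.09, limma adjusted p = 0.063). CDC21, thymidylate synthase, differed by -0.40 ± 0.09 (limma adjusted p = 0.078). Most of the list's difference lay in the 80 and 20 min pair (median -0.45) and the 70 and 10 min pair (median -0.31), and the 90 and 30 min pair had a median of -0.01. Quantile normalization moved the median of the list to -0.07.

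Outside the list, SMC6, of the Smc5-Smc6 complex, was lower (difference -0.53 ± 0.09, limma adjusted p = 0.022), as was the cohesin regulator PDS5 (difference -0.50 ± 0.09, limma adjusted p = 0.038). Both were named after their values were seen. PDS5 peaked at the middle position of both passages, with 0.90 at 80 min and 1.60 at 20 min.

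The core histone genes, of which 0 of 8 passed in the limma fit (0 also at an unadjusted p under 0.05), had a median difference of -0.12. Its sign varied with the position: the list median was 0.20 for the 70 and 10 min pair, -0.18 for the 80 and 20 min pair and -0.48 for the 90 and 30 min pair. With pairs 70 min apart the list median was 0.37, and with pairs 50 min apart it was -0.84. HTB2, for histone H2B, was at -1.20, 0.14 and 0.46 in the second passage and -1.36, 0.47 and 0.98 in the first (difference -0.23 ± 0.13). Near-identical histone copies may share signal on the arrays. Of 10 S/G2 genes 0 passed in the limma fit (3 unadjusted), with a median of -0.13, and SPC98, of the spindle pole body, had the lowest value (-0.35 ± 0.08, limma adjusted p = 0.10). The Mcm1-dependent M/G1 genes and helicase subunits (8 tested, SWI4 not measured) had 0 calls in the limma fit (4 unadjusted) and a median of 0.30. MCM5 was at 0.41, -0.04 and -0.40 in the second passage and 0.54, -0.64 and -1.37 in the first: the first position was alike and the difference opened at the later positions. The G1 cyclin CLN3 differed by 0.24 ± 0.16.

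Some genes of late mitosis were also higher in the second passage. In the CLB2 cluster, 4 of 17 were higher and 0 lower, with a median difference of 0.41, and 0 were called with neighbouring pairs correlated. The 4 were CHS2, HOF1, CDC20 and IQG1. An unadjusted limma p under 0.05 was reached by 13 of the 17, against 13.9% of all genes. CHS2 (YBR038W), the chitin synthase that builds the primary septum, was at -0.09, -0.78 and -0.87 in the second passage and -1.68, -2.03 and -1.41 in the first (difference 1.13 ± 0.17, limma adjusted p = 0.014). HOF1, which couples the actomyosin ring to septum growth, was at -0.09, -0.72 and -0.82 in the second passage and -1.41, -1.22 and -1.57 in the first (difference 0.86 ± 0.14, limma adjusted p = 0.022). In both passages these genes were below the asynchronous culture on every array, and less so in the second. CDC20, an activator of the anaphase-promoting complex, differed by 0.57 ± 0.08 and IQG1, a ring protein, by 0.51 ± 0.10. The mitotic cyclin CLB2 had a difference of 0.38 ± 0.13 and SWI5 itself 0.10 ± 0.15, and neither passed.

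AIM44 and MRH1, which stand in no list, were also among the 10 genes called highest. AIM44 (YPL158C), a bud neck protein that keeps the old neck from being used again, was at 1.12, 0.38 and -0.40 in the second passage and -1.61, -1.29 and -1.65 in the first (difference 1.88 ± 0.23, limma adjusted p = 0.0041). Its partner NBA1 was higher by 0.76 ± 0.11 (limma adjusted p = 0.014) and the cytokinesis protein CYK3 by 0.83 ± 0.11 (limma adjusted p = 0.0083), both named after their values were seen. MRH1 (YDR033W), a plasma membrane protein related to the heat shock protein Hsp30, was at 0.29, -0.55 and -1.31 in the second passage and -2.03, -2.73 and -2.60 in the first, and differed by 1.93 ± 0.17 or 3.81-fold (limma adjusted p = 8.2e-04). Its paralog YRO2, also named after its value was seen, was at 0.23, -0.34 and -0.69 in the second passage and -1.45, -1.54 and -1.86 in the first, and differed by 1.35 ± 0.11. The arrays of AIM44, MRH1 and YRO2 did not overlap.

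In the list of cell wall integrity genes, 2 of 17 were higher and 0 lower, with a median of -0.04: PST1, a wall protein induced by damage, by 1.21 ± 0.18 (limma adjusted p = 0.015), and CHS1, the repair chitin synthase, by 0.94 ± 0.08 (limma adjusted p = 7.1e-04). With neighbouring pairs correlated CHS1 was still called and PST1 was not (adjusted p = 0.19). The other members ran both ways without passing, between TIP1, a wall mannoprotein, at 0.91 ± 0.22 (limma adjusted p = 0.10) and CWP1, another, at -0.61 ± 0.33 (limma adjusted p = 0.46). For 3 of the 17 the second-passage arrays lay wholly below, and for 2 wholly above, against 7.01% and 8.44% of all genes. At an unadjusted limma p under 0.05 there were 9 of the 17, against 13.9% of all genes. Of 14 mRNAs reported to be bound by Ssd1, 2 were higher and 0 lower, HSP150 and SUN4, with a median of 0.11. With neighbouring pairs correlated 0 were called (adjusted p = 0.40 and adjusted p = 0.052). An unadjusted limma p under 0.05 was reached by 9 of the 14, against 13.9% of all genes. SSD1 itself stood at -0.21, -0.05 and -0.03 in the second passage and 0.03, -0.34 and -0.46 in the first, and its difference of 0.16 ± 0.13 did not pass (limma adjusted p = 0.64).

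Of the 19 genes in the pheromone response and fusion list, 1 was higher and 0 were lower, with a median of 0.03. An unadjusted limma p under 0.05 was reached by 10 of the 19, against 13.9% of all genes. For 4 the second-passage arrays lay wholly above and for 4 wholly below, against 8.44% and 7.01% of all genes. FAR1 (YJL157C), the inhibitor that imposes the arrest, was at 0.15, -0.43 and -1.06 in the second passage and -1.46, -2.08 and -2.14 in the first, a difference of 1.45 ± 0.12 or 2.73-fold (limma adjusted p = 5.9e-04), after 1.07 at 0 min. It was the called gene of the list. GPA1, the G protein subunit of the pathway, was at -0.14, -0.50 and -0.91 in the second passage and -0.35, -1.44 and -1.93 in the first, with overlapping arrays, and did not pass (difference 0.72 ± 0.15, limma adjusted p = 0.055).

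Other genes of the list left the arrest at unequal pace. FIG1, AGA1, FIG2, PRM1 and PRM3 were still between 1.47 and 2.76 at 10 min. FUS1, PRM2, FUS2, PRM6, KAR4 and KAR5, which had been between 2.04 and 3.40 at 0 min, were between 0.16 and 0.74 at 10 min. FIG1, of mating cell fusion, was at 0.47, 0.24 and 0.15 in the second passage and 2.76, 0.61 and 0.53 in the first, and its difference of -1.01 ± 0.32 did not pass (limma adjusted p = 0.19). AGA1, the anchor of the a-agglutinin, was at -0.15, -0.16 and -0.20 in the second passage and 2.35, 0.29 and 0.04 in the first (difference -1.06 ± 0.35, limma adjusted p = 0.22). For both genes the arrays did not overlap, while most of the difference stood in the 10 min array, which followed values of 4.53 and 3.78 at 0 min. PRM1, PRM3 and FIG2, which also act in mating, had differences of -0.49 ± 0.16, -0.62 ± 0.28 and -0.88 ± 0.34, and FUS1 of 0.24 ± 0.09.

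Among 7 MATa-specific genes, 2 were higher and 0 lower, with a median of 0.34, or 0.04 after quantile normalization. An unadjusted limma p under 0.05 was reached by 6 of the 7, against 13.9% of all genes. BAR1, the protease that degrades alpha factor, was at 0.27, 0.04 and -0.32 in the second passage and -0.08, -1.31 and -1.58 in the first (difference 0.99 ± 0.17, limma adjusted p = 0.028), and STE6, the exporter of a-factor, differed by 0.68 ± 0.12 (limma adjusted p = 0.032). The arrays of both overlapped, and neither was called with neighbouring pairs correlated (adjusted p = 0.68 and adjusted p = 0.72). The a-factor gene MFA1 had a value below 0: it was at -0.84, -0.86 and -0.97 in the second passage and 1.66, -0.08 and -0.93 in the first (difference -1.11 ± 0.36, limma adjusted p = 0.21), and ASG7 had -0.74 ± 0.28. Of 12 markers of alpha cells and meiosis, 0 passed in the limma fit (2 unadjusted), and the median was 0.01. Log ratios to another culture do not show whether a marker is expressed, so these give no check of the cell type beyond the response to alpha factor.

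Fewer and smaller differences ran downward. YNL208W, which has no gene name in the RefSeq table, was at -0.12, -0.13 and -0.09 in the second passage and 1.49, 1.31 and 0.89 in the first, and differed by -1.34 ± 0.12 or 2.54-fold (limma adjusted p = 8.2e-04). It had been at 1.82 at 0 min and fell with each array until 60 min, and then stayed near 0. DIG2 (YDR480W), an inhibitor of the pheromone factor Ste12, was at 0.34, 0.43 and 0.34 in the second passage and 1.24, 1.28 and 1.38 in the first (difference -0.93 ± 0.09, limma adjusted p = 8.6e-04). DIG2 was as high at 0 min, with 1.23, as it was through the first passage. These were the 2 lower genes still called with neighbouring pairs correlated (adjusted p = 0.015 and adjusted p = 0.029).

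GTT1, PYC1 and OPI3 were also among the 10 genes called lowest. GTT1, a glutathione transferase, was at 0.09, -0.03 and -0.09 in the second passage and 0.89, 0.67 and 0.57 in the first (difference -0.72 ± 0.08, limma adjusted p = 0.0035). PYC1, pyruvate carboxylase, was at 0.31, 0.18 and 0.32 in the second passage and 1.40, 1.21 and 0.66 in the first (difference -0.82 ± 0.14, limma adjusted p = 0.026). OPI3, which methylates phospholipids to phosphatidylcholine, was at -0.06, -0.22 and -0.29 in the second passage and 0.72, 0.46 and 0.25 in the first (difference -0.67 ± 0.09, limma adjusted p = 0.0070). All 3 genes had been above 0 in the arrest, at 0.96, 0.69 and 0.72.

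The other genes called lowest were YMR173W-A (-1.02 ± 0.15), YIL082W-A (-0.83 ± 0.11), BSC1 (-0.65 ± 0.10), PRM7 (-0.64 ± 0.11) and YIL080W (-0.62 ± 0.08). YIL082W-A, a frame of the Ty3 retrotransposon whose copies may share signal, was far above the asynchronous culture on every array, at 2.62, 2.40 and 2.39 in the second passage and 3.53, 3.47 and 2.90 in the first. BSC1 and PRM7, which lie next to each other in the RefSeq table, were far below it, with second-passage means of -2.46 and -2.70 and first-passage means of -1.81 and -2.06. YMR173W-A and YIL080W are not in that table and were kept under their names in the file.

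Lists of growth and metabolism held few calls. Of 20 ribosomal protein genes 0 passed in the limma fit (2 unadjusted), but 18 had a difference above 0 with a median of 0.12, and for 11 the second-passage arrays lay wholly above, against 8.44% of all genes. Of 20 ribosome biogenesis genes 0 passed in the limma fit (0 unadjusted), with a median of -0.09. Of 16 genes of the phosphate regulon 1 was lower and 0 higher, the transporter PHO84 (difference -0.49 ± 0.09, limma adjusted p = 0.032), which overlaps another annotated gene, and the list median was -0.17. PHO84 was not called with neighbouring pairs correlated (adjusted p = 0.69). For 6 of the 16 the second-passage arrays lay wholly below, against 7.01% of all genes. An unadjusted limma p under 0.05 was reached by 6 of the 16, against 13.9% of all genes. PHO89, the sodium-coupled phosphate transporter, was at 0.19, 0.10 and 0.14 in the second passage and 1.63, 0.62 and 0.35 in the first, a difference of -0.72 ± 0.19 that did not pass (limma adjusted p = 0.14).

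In the lipid and sterol list, 2 of 21 were higher, the acyl-CoA synthetase FAA3 (0.79 ± 0.14) and the elongase ELO1 (0.53 ± 0.10), and 1 was lower, OPI3. With neighbouring pairs correlated 0 of the list were called. That setting gave adjusted p = 0.72 for FAA3, adjusted p = 0.68 for ELO1 and adjusted p = 0.22 for OPI3. An unadjusted limma p under 0.05 was reached by 4 of the 21, against 13.9% of all genes. The desaturase OLE1 had the largest difference of that list without passing: -0.32, -0.36 and -0.32 in the second passage and -0.64, -1.41 and -2.24 in the first (difference 1.10 ± 0.24, limma adjusted p = 0.066). Genes of sulfate assimilation and methionine synthesis had 0 of 17 called by limma (4 unadjusted) and a median of -0.22, but it came from 1 pair: the medians were -0.02, 0.11 and -0.67 for the 70 and 10, 80 and 20, and 90 and 30 min pairs. At 30 min MET3, the first enzyme of that pathway, stood at 1.00, against 0.11 at 90 min. Iron uptake genes likewise had 0 of 12 called by limma (3 unadjusted) and a median of -0.01, with pair medians of 0.58, -0.15 and -0.59.

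Of the remaining 8 lists none had a call in either direction in the limma fit. At an unadjusted p under 0.05 there were 8 heat shock, 6 respiration, 4 hexose transport, 3 Gcn4 and 2 stress genes, and 0 in the other 3 lists, against 13.9% of all genes. Their medians were -0.02 for 20 general stress genes, -0.18 for 17 heat shock proteins and chaperones, 0.07 for 15 genes of glycolysis, 0.05 for 15 of the citric acid cycle, 0.12 for 24 of respiration, 0.18 for 11 of hexose transport, 0.01 for 20 Gcn4 targets and -0.03 for 6 auxotrophic marker genes. The stress median was 0.03 and so above 0 after quantile normalization, and the iron median was 0.02 after scaling to a common spread. In all, 31 of the 99 called genes stood in a list and 68 in none.

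**Figure D3:**
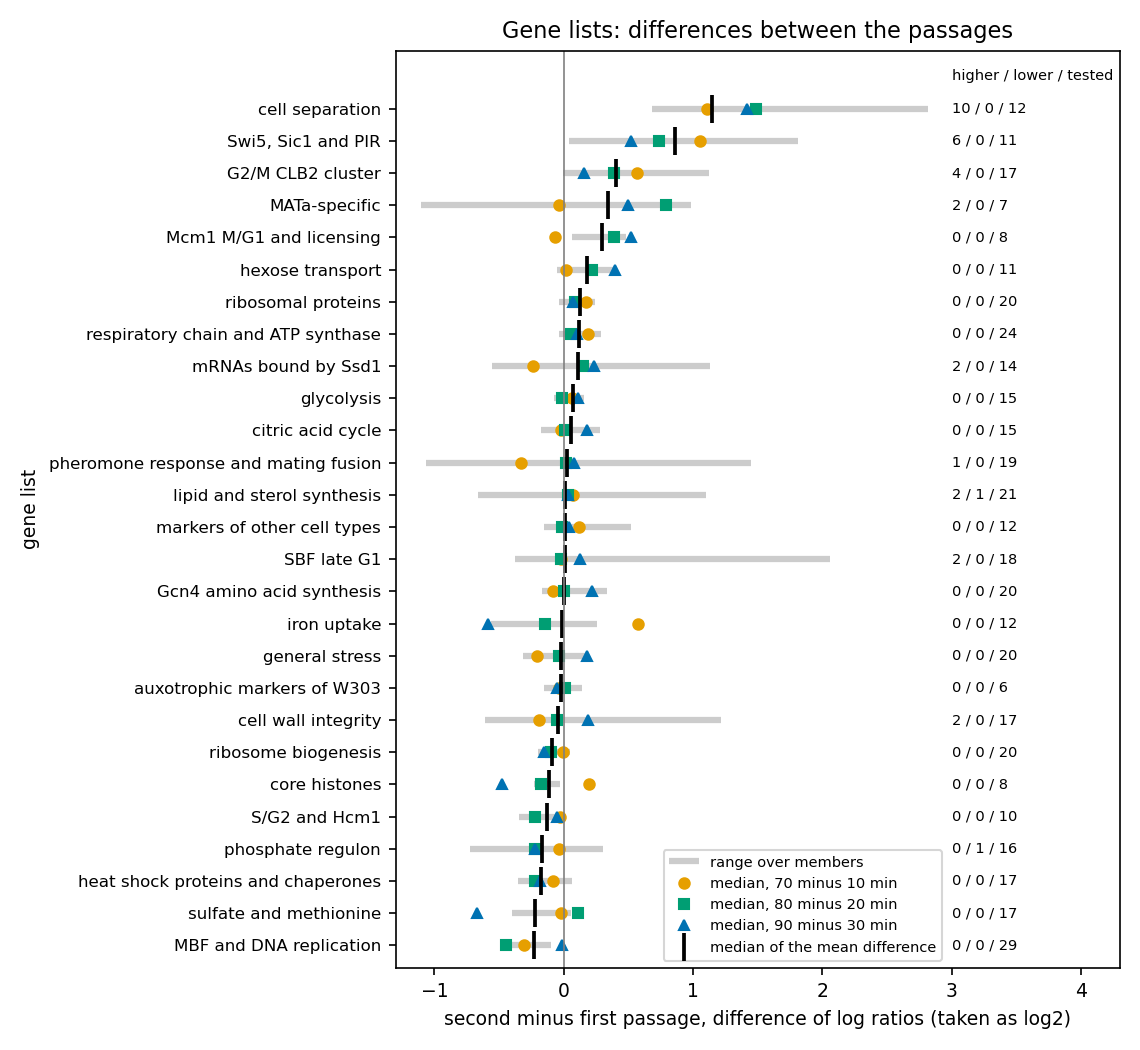
Difference of log ratios, second minus first passage (horizontal axis, taken as log2), for 27 gene lists. Grey bars span the members, coloured points are list medians for each pair 60 min apart, black ticks are the medians of the mean difference, and the numbers give genes called higher, called lower and tested, with 10, 0 and 12 for the cell separation list at the top and 0, 0 and 29 for the MBF list at the bottom.

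Whether these differences belong to the G1 to S passage or to the whole cycle was asked with the other 6 arrays after release, 100, 110 and 120 min against 40, 50 and 60 min. The pair differences were more widely spread over genes in the G1 to S part, with SDs of 0.272, 0.223 and 0.259, than in the other part, with 0.195, 0.171 and 0.177. In the fit of all 12 arrays, 8 genes (0.13%) were higher and 11 (0.179%) lower in the other part, and by the same fit 116 (1.89%) were higher and 96 (1.57%) lower in the G1 to S part. The contrast of the parts was called for 52 of 6134 genes (0.848%), 29 above 0 (0.473%) and 23 below 0 (0.375%). This fit takes the pair differences as independent, and the setting with correlated pairs was not applied to it. Across genes the 90 and 30 min pair correlated with the 100 and 40 min pair at Pearson r = 0.58. The 100 and 110 min pairs correlated at 0.49 and the 110 and 120 min pairs at 0.57. Of the 66 higher genes 25 had a called contrast, and of the 33 lower genes 7. Both sets were chosen by their G1 to S difference, which is a term of the contrast. This overlap is therefore partly built in and is not independent evidence. The count of called contrasts was 6 after quantile normalization. When single pairs of the G1 to S part were left out, it was 27 without the pair at 70 min. It was 0 without the pair at 80 min (595 at an unadjusted limma p under 0.05) and 233 without the pair at 90 min.

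For MMR1, CDC20, SUN4 and MRH1, the difference in the other part was near 0 or of the opposite sign. MMR1 (YLR190W), which carries mitochondria into the bud, was at -0.13, -0.62 and -0.52 in the second passage and -0.98, -1.22 and -1.15 in the first. It differed by 0.69 in the G1 to S part and -0.23 in the other, and the contrast was 0.93 ± 0.10 (limma adjusted p = 0.023). MRH1 differed by 1.93 and -0.10, a contrast of 2.03 ± 0.24 (limma adjusted p = 0.023), and CDC20 by 0.57 and -0.13, a contrast of 0.70 ± 0.09 (limma adjusted p = 0.030). SUN4 differed by 0.90 and 0.01, a contrast of 0.89 ± 0.12 (limma adjusted p = 0.030). HO was higher in both parts, by 2.06 and 0.77, with a contrast of 1.29 ± 0.17 (limma adjusted p = 0.030). EGT2 differed by 2.82 and 0.92, and its difference in the other part did not pass (limma adjusted p = 0.14). Across the 66 higher genes, the difference in the other part had the same sign for 50 and the opposite sign for 15, with a median of 0.19.

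On the other side of the contrast stood genes with a value below 0 in the G1 to S part and above 0 in the other, some of them replication genes. CDC21 was at 0.38, 0.67 and 0.43 in the second passage and 0.62, 1.17 and 0.90 in the first. Its differences were -0.40 and 0.28 and its contrast -0.68 ± 0.10 (limma adjusted p = 0.033). POL30 and DUN1, also of the MBF and replication list, had a called contrast below 0. OPI3 had differences of -0.67 and 0.17 and a contrast of -0.84 ± 0.10 (limma adjusted p = 0.023). YGR139W (-0.63 ± 0.09), YKL066W (-0.62 ± 0.09) and YBR089W (-1.00 ± 0.15) completed the 5 genes of smallest p below 0. None of these 3 names is in the RefSeq table, so their overlap with named genes was not checked. YBR089W ran close to POL30, at 0.88, 1.38 and 0.44 beside 1.02, 1.51 and 0.62 at 10, 20 and 30 min. Whether the 2 share signal was not tested.

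For other genes the values of both parts lay closer together. DSE2 differed by 1.05 and 1.21, BSC1 by -0.65 and -0.66 and YIL082W-A by -0.83 and -0.76, and none of these contrasts was called. The contrast of BSC1 was 0.01 ± 0.14, and that of BAR1 0.19 ± 0.25.

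**Figure D4:**
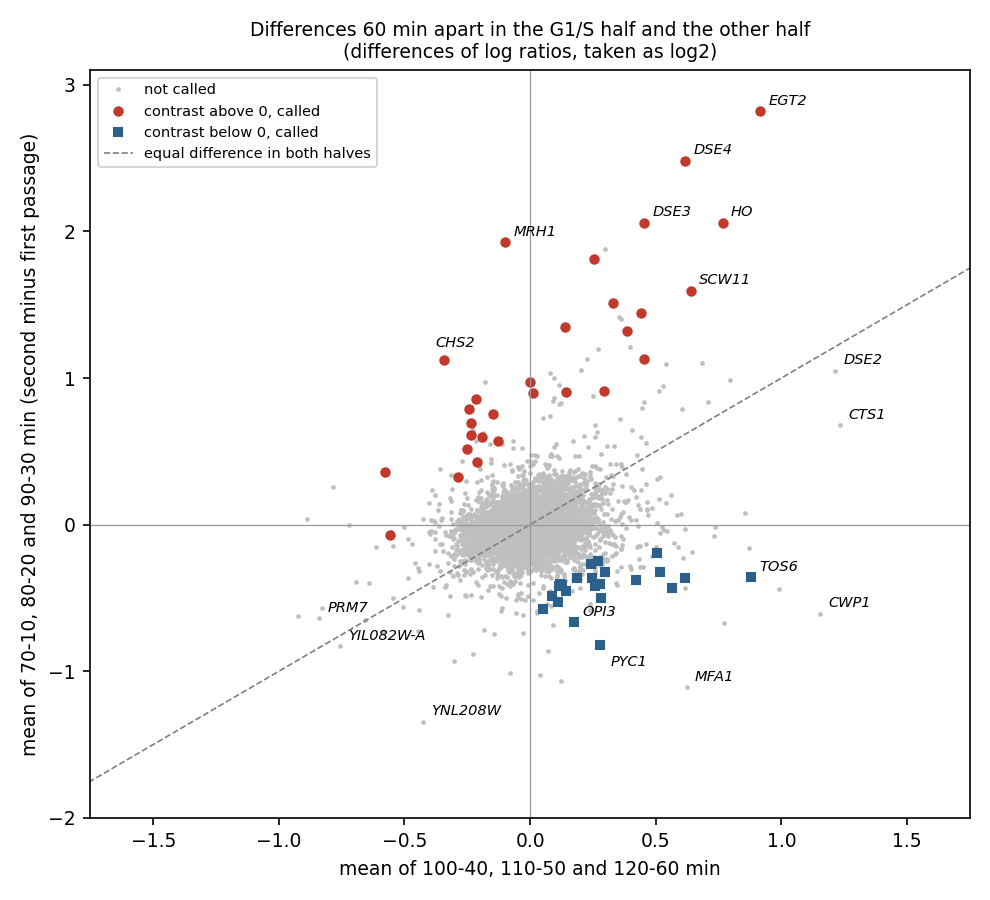
Difference between the second and the first cycle in the G1 to S part (vertical axis, mean of 3 pairs 60 min apart) against that in the other part (horizontal axis), both taken as log2, 1 point per gene. The 29 red circles and 23 blue squares are genes whose contrast was called above and below 0, and the dashed line marks equal differences, near which BSC1's neighbour PRM7 and YIL082W-A lie.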

How the data were processed

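The deposited table holds 1 log ratio per open reading frame and array, taken as log2. Per the labels, the timed cDNA was in Cy5 and that of the asynchronous culture in Cy3. How background was corrected, how the arrays were normalized and which log base was used is not stated there. The values were used as deposited. Signal over background is unknown, and 1 array per time point limits the precision.

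Of 6295 rows, 108 were empty and 20 had no readable name. Names came from a RefSeq gene table (assembly R64) through the locus tag for 5768 rows and a synonym for 49, and 458 kept their file name. Rows of a gene were averaged (27 genes), giving 6140 genes, of which 6137 had at least 2 pairs.

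Second and first passage were compared with limma 3.58.1 (lmFit, eBayes) in R 4.3.3. The position after release modulo 60 min was a block, on the time labels, so each pair shares a position in the course and is not a replicate. Across genes the 3 pair differences correlated at 0.57, 0.47 and 0.17. The residual had 2 degrees of freedom and moderation added 6.7. P-values were adjusted over all genes by Benjamini-Hochberg, and genes at an adjusted p under 0.05 were called. The contrast of the parts used 12 arrays with 6 positions as blocks. The script was tested on simulated data. Python 3.11.15 and matplotlib 3.10.9 made the figures.

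The gene lists, written from general knowledge, and the comparison were chosen with earlier results of these data known. The rule for names took the 10 highest and 10 lowest called genes with the same sign in all pairs, the 3 largest absolute differences per list, SSD1, and the 5 genes of smallest p in each direction of the contrast. Some genes that the rule or a list takes are not reported here. Other list members are named to complete a group's description, and genes outside the lists and the rule were named after their values were seen. The alternatives tried were median centring, quantile normalization, scaling to a common median absolute deviation, pairs 50, 63 (interpolated) or 70 min apart, no block, each pair left out, a spread from 12 arrays, robust moderation, genes with a single row and a minimum difference of 0.5. Correlated pairs and genes that overlap no other gene were added after seeing the data. Overlap was looked for only among entries of the RefSeq table. Frames absent from it, 7 of the called genes among them, could not be removed by that setting.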

Additional observations from a re-analysis of the deposited data

Results flagged for a closer look

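For 30 named genes the difference between the second and the first cycle was itself different in the G1 to S part and in the other part of the cycle, by limma's contrast at an adjusted p under 0.05. Each value here is the difference in the G1 to S part minus that in the other part. Above 0 were genes of cell separation and Swi5 targets, with EGT2 at 1.90, DSE4 at 1.87, DSE3 at 1.61, PCL9 at 1.56, NIS1 at 1.18, SCW11 at 0.96, RME1 at 0.94 and SUN4 at 0.89. The mitotic and cytokinesis genes CHS2 at 1.47, HOF1 at 1.07, IQG1 at 0.76 and CDC20 at 0.70 were also above 0. So were MRH1 at 2.03, YRO2 at 1.21, NBA1 at 0.90, HO at 1.29, FAA3 at 1.03, FAR1 at 1.00 and MMR1 at 0.93. Below 0 were PYC1 at -1.10, OPI3 at -0.84 and CSI2 at -0.80, the replication and checkpoint genes POL30 at -0.84, CDC21 at -0.68 and DUN1 at -0.54, and PDS5 at -0.79 and SMC6 at -0.64. The unnamed frames YBR089W at -1.00, YGR139W at -0.63 and YKL066W at -0.62 were below 0 as well. With 1 array per time point, no repeat of these differences was measured. The fit took the pair differences as independent although neighbouring pairs correlated across genes, and the correlated setting was not applied to it. The pairs at 120 and 60 min belong to the other part, and genes such as CHS2, MRH1 and PCL9 were already at 0.79, 0.47 and 0.84 at 60 min. Its part in the contrast was not tested.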

How the results depend on the processing

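The 99 genes called between the passages became 54 after quantile normalization (35 higher and 19 lower, 44 of them among the 99), 18 with pairs 70 min apart, 24 with pairs 50 min apart and 212 with the spread taken from 12 arrays (116 higher and 96 lower). Taking neighbouring pairs as correlated, added after seeing the data, left 20. Without the position block 9 remained of the 99, 7 higher and 2 lower, so most calls need the pairing by position. Leaving out single pairs gave 0 to 41 genes: 41 without the 70 and 10 min pair (30 of them among the 99), and 0 without either other pair, with 304 and 809 at an unadjusted limma p under 0.05. Such fits have 1 residual degree of freedom fewer. Counts between 82 and 109 came from median centring, scaling to a common spread, a shift of 63 min, robust moderation and single-row genes. Genes without overlap in the RefSeq table and a minimum difference of 0.5 also gave counts in that range. The 52 genes of the contrast of the parts became 6 after quantile normalization, 55 after median centring and 46 with robust moderation. They became 0 to 233 when single pairs of the G1 to S part were left out. The cause of these changes was not tested.

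The 20 genes with the largest called differences kept their sign in every alternative in which they were tested. With correlated pairs all 10 highest were still called and 2 of the 10 lowest. Of 1408 values of named genes under the alternatives, 1200 kept direction and side of the threshold, 190 no longer passed, 11 newly passed and 7, of genes not called, changed sign. Signal over background is not in the table used, so no limit from dim spots can be given.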
